A study of Mus musculus with 6 samples.

Results

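The 42 genes described here encode the enzymes of glycolysis, the dehydrogenases and transporters that handle lactate and glucose, the pyruvate dehydrogenase complex with its kinases, and the enzymes of the TCA cycle. They were listed by symbol for their place in these pathways, with earlier results of these data known, and each was read from the probe set with the highest mean over 6 arrays. Of the 42 genes, 38 were tested, among 15103 tested genes in all. Gpi1 and Eno1 had no entry in the table that names the probe sets and were not analysed here. Gapdh was carried only by control probe sets and by probe sets with several symbols, so that its values are given with no test. Slc16a3 had a mean intensity under 40 and was not tested either.

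The arrays were hybridized with amplified RNA from the ganglion cell layer of male C57BL/6J mice, which was cut from frozen sections with a laser, about 6000 cells per eye. The crush group is 3 eyes taken 6 hrs after the optic nerve had been crushed behind the globe with fine forceps. The control group is 3 contralateral eyes of the crushed animals, whose nerve was left uninjured, and 1 array was made per eye. Ages are not given in the sources used here. Besides RGCs the tissue cut out in this way includes amacrine cells that lie in the layer, glia and blood vessels, so that fewer cells of a type and less RNA per cell cannot be told apart.

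Glycolysis splits glucose into pyruvate in the cytosol and yields a small amount of ATP. Pyruvate is then either reduced to lactate, which leaves or enters cells through monocarboxylate transporters, or oxidized by pyruvate dehydrogenase to the acetyl group that feeds the TCA cycle in mitochondria. The retina is known for a high rate of lactate production even when oxygen is present, which is largely a property of its photoreceptors, while the spiking neurons of the inner retina rely heavily on mitochondrial oxidation. Many genes of glycolysis are textbook targets of the hypoxia-inducible factor HIF1, which binds short DNA elements with the core ACGTG or GCGTG.

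Promoter sequence is shown for the members with the highest differences between crushed and control eyes (Hk2 and Slc16a1), and for Pgk1, a HIF1 target of textbooks whose intensity stayed within a narrow range. Each sequence is the 250 bases before the transcription start in RefSeq (GRCm38.p6), written on the strand of the gene. Capitals mark every ACGTG or GCGTG on either strand, where the reverse strand reads as CACGT or CACGC. The windows lie at chr6:82774455-82774704 on the minus strand for Hk2, at chr3:104638414-104638663 on the plus strand for Slc16a1 and at chrX:106186850-106187099 on the plus strand for Pgk1.
Hk2: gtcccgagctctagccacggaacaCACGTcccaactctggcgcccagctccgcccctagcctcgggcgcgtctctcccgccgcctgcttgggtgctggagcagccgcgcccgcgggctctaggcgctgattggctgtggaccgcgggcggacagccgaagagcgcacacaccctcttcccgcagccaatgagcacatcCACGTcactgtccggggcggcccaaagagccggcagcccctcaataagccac
Slc16a1: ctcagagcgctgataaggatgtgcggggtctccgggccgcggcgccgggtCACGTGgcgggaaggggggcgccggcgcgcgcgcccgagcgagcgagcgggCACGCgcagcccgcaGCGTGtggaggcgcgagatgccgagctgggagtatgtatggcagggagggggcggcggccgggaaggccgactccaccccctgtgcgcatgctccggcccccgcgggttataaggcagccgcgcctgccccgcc
Pgk1: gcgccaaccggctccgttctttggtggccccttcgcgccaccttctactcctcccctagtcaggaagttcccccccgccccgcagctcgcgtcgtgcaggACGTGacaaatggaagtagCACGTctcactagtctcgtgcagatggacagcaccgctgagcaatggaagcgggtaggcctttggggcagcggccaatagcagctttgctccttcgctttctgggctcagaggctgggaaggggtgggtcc

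Hk2 holds 2 such cores, 52 and 226 bases before the start. Slc16a1 holds 4, of which a pair overlaps in the palindrome at 200 bases before the start, and Pgk1 holds 2 at 131 and 150 bases. Of the 38 tested members, 35 matched a promoter entry by symbol, and 29 of these had at least 1 core in their 54 entries (77.8% of the entries). Over all 32851 promoter entries the share was 38.6%, but the members' windows were richer in G and C, with a median of 60.4% against 52.4%. TAATCC, the core that the photoreceptor factors OTX2 and CRX bind, was in 7 of the members' 54 entries (13.0%) and in 6.25% of all entries, and in none of the 3 windows shown. These are matches of letters only.

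Intensities are in arbitrary units as made by the authors in dChip. For the comparison, values were raised to at least 16 before log2 was taken, and all differences below are log2 intensity of the crushed eye minus that of its control eye. Each was tested with limma, which shares the spread of all probe sets, in a fit that pairs the eyes by their number. A gene was called at an unadjusted p under 0.05. None of the 38 tested members was called in either direction with limma, where 2.76% of all tested genes were called higher and 2.27% lower after crush. Among genes with a mean intensity of at least 3000, which include 25 of the members, 3 of 2213 were called higher and 6 lower. Such bright genes were rarely called at all, so that 0 calls says little about whether these 25 members changed. At an adjusted p under 0.05 the share was 0.00% of all tested genes. The methods' t-test, run on the linear intensities, gave 0 members higher and 1 lower (Idh2) at an unadjusted p under 0.05, where it called 2.56% of all tested genes higher and 2.33% lower. In none of the 38 tested members did the 3 crushed eyes all lie above or all below the 3 control eyes, against 5.69% of all tested genes with no overlap upward and 5.32% with no overlap downward. Among genes with a mean of at least 3000, 50 of 2213 had no overlap upward and 77 had none downward.

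The 95% interval of each difference from limma has a width that rests partly on the spread shared over all probe sets. For Hk1 the pairs differed by -0.01, 0.01 and -0.00, while the standard error was 0.13. For bright members with such close pairs the width therefore reflects the shared spread more than that of their own pairs. All 38 intervals included 0. For 36 members the interval lay within a 2-fold change in either direction, the exceptions being Hk2 and Pdk3, and for 32 it lay within a 1.5-fold change, where Slc16a1, Slc16a7, Dlat and Pdk4 also fell outside. The intervals are those of the brightest probe set of each gene and are not adjusted for the number of members. Some dimmer probe sets had intervals beyond a 2-fold change, among them a probe set of Idh3a (-2.05 to 0.46) and a probe set of Pfkp (-1.38 to 0.08). The median of the absolute difference was 0.0860 over the members and 0.137 over all tested genes. For genes with a mean intensity of at least 3000, which include 25 of the members, it was 0.0760, and for those 25 members 0.0770. The values for bright members and for all bright genes lay close together, which is a description with no test.

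**Figure D1:**
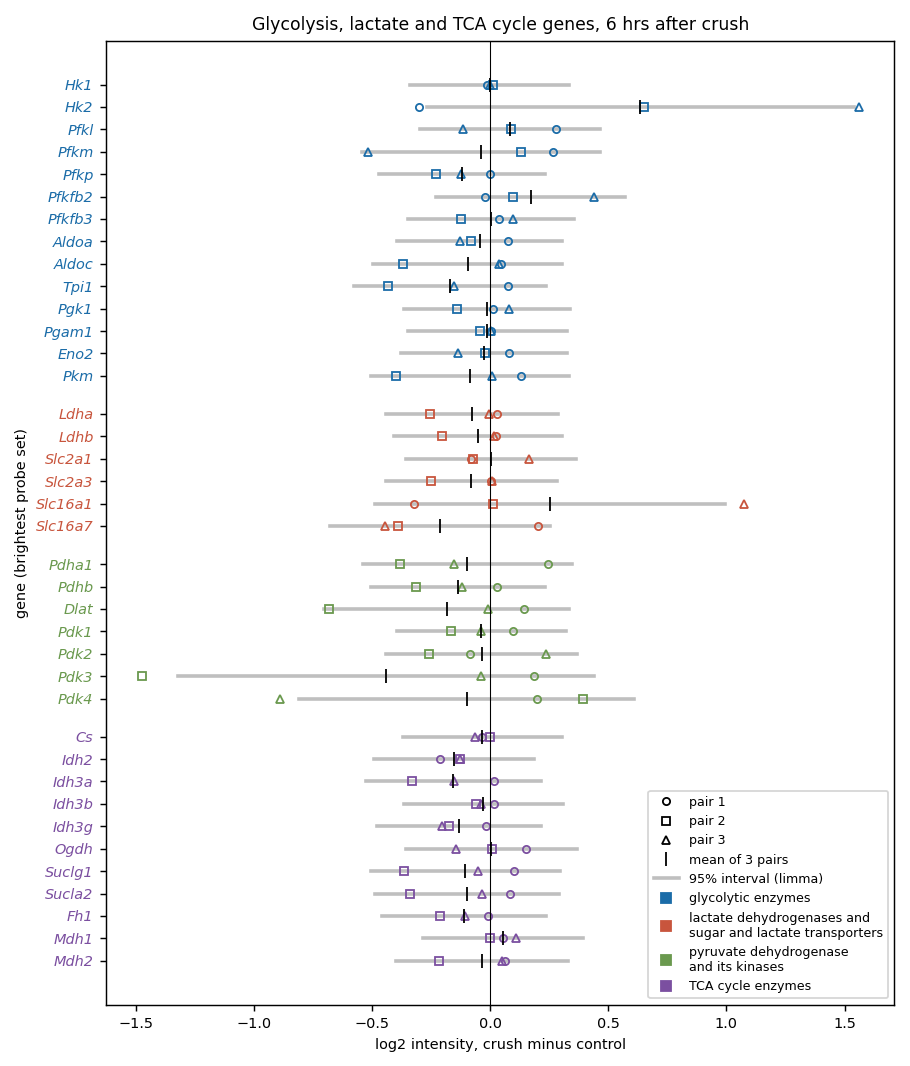
Log2 intensity of the crushed minus the control eye for each of the 38 tested members, in order of role. Open symbols are the 3 pairs of eyes, the black tick is their mean and the grey bar its 95% interval from limma, and all bars include 0. Hk2 and Slc16a1 are highest in pair 3, and Pdk3 is lowest in pair 2.

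Facts of the arrays bear on these values. Median intensity was lowest on the array of crush eye 2 (131.2), highest on that of crush eye 3 (153.9) and between 141.1 and 142.65 on the others. The ratio of the 3′ to the 5′ control probe set of Gapdh was also lowest for crush eye 2 (4.62) and highest for crush eye 3 (7.54). On the other arrays this ratio was between 4.68 (crush eye 1) and 6.60 (control eye 2). Of 18 RGC markers 17 were tested and 0 called, with a summed intensity of 69842 to 71794 in control eyes and of 62080 to 78605 after crush. Pou4f1 was between 6476 and 7961 and Nefl between 12173 and 14474 on all arrays, while others of the list, such as Pou4f3 (25.8 to 72.1), were dim. Rod markers were present too, with Gnat1 between 5312 and 10394, so that the captured material held photoreceptor RNA in all 6 eyes. Markers of the retinal pigment epithelium, 6 of 8 tested, had a summed intensity of 1280 to 1906 in control eyes and of 2661 to 8728 after crush, and 4 of the 6 were called higher, with Ttr at 493 to 948 in control and 1733 to 7355 in crushed eyes. On the array of crush eye 2, 36.5% of all tested genes had their lowest value of the 6 arrays, and this was so for 24 of the 38 members. Among genes with a mean of at least 3000 the share was 46.9%, and among such members 20 of 25. All 9 tested bipolar cell markers had a difference below 0 and 3 were called lower, with sums of 22254 to 25401 in control eyes and 19364 to 21896 after crush. Of 12 Muller cell markers 11 were below 0 and 1 was called lower, with sums of 58668 to 66360 and 56059 to 57579. Of 6 tested astrocyte markers 2 were called higher, among them Gfap, at 326 to 503 in control and 607 to 821 in crushed eyes. Another 2 of the 6 were below 0, and the median of the list was 0.14. Of 12 amacrine cell markers 10 were below 0 and 0 were called, with a median of -0.14. Of 8 tested microglia markers 5 were above 0 and 1 was called lower. The part of these array and marker values in the members' differences was not tested, and the results below are given by pair.

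Glycolytic enzymes had a median difference near 0 as a group, and Hk2 lay farthest from it. Of 14 tested, 4 had a difference above 0 and 10 below, with a median of -0.02, against -0.02 over all tested genes. Hk1, the hexokinase of most neurons, which commits glucose to the cell by phosphorylating it, was at 7011, 6521 and 6279 in control eyes 1 to 3 and at 6941, 6574 and 6269 in the crushed eyes. Its differences were -0.01, 0.01 and -0.00 in pairs 1 to 3, and the largest of its 6 values was 1.12 times the smallest. Hk2 phosphorylates glucose as well and is the hexokinase that photoreceptors are known for. It was at 2065, 1085 and 704 in control eyes 1 to 3 and at 1676, 1702 and 2075 after crush. The controls held the lowest and nearly the highest of the 6 values, which spanned a 2.95-fold range, and the direction differed between the pairs, at -0.30, 0.65 and 1.56. The mean difference of 0.64 (95% interval -0.27 to 1.54, adjusted p = 0.664 from limma) was the largest of the members. Without pair 1 it was 1.10 with an unadjusted p of 0.0157, and without pair 3 it was 0.17.

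None of the 13 tested rod markers and 1 of the 8 tested cone markers (Opn1mw, higher) was called with limma. The array order of Hk2 resembled that of the photoreceptor markers. Summed over 13 of 15 rod markers, intensity was 86226, 65198 and 52069 in control eyes 1 to 3 and 78261, 70551 and 80000 after crush. Summed over 8 of 9 cone markers it was 13917, 10451 and 6252 in control eyes and 11228, 9747 and 13042 after crush. For Hk2 as for both marker sums, control eye 1 and crush eye 3 were the highest arrays and control eye 3 was the lowest. The rod markers had median differences of -0.19, 0.19 and 0.74 in pairs 1 to 3, in the same order of pairs as for Hk2, and the part of photoreceptor RNA in the values of Hk2 was not tested.

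**Figure D2:**
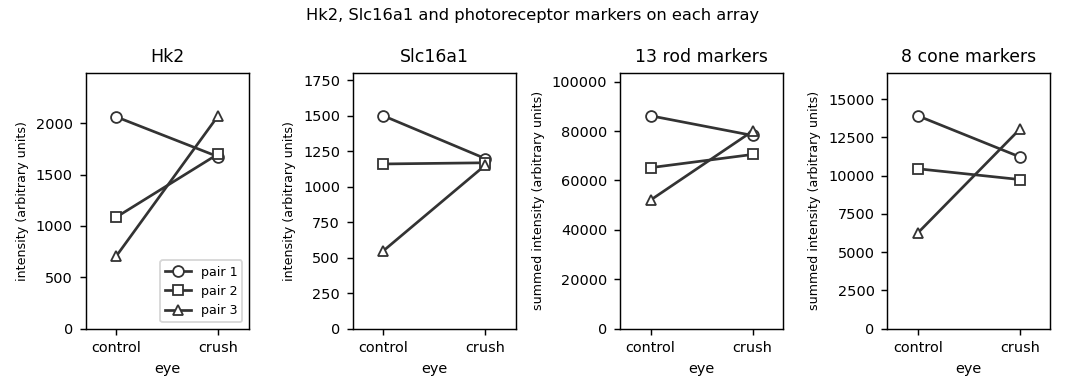
Intensity of Hk2 and of Slc16a1, and summed intensity of 13 rod and 8 cone markers, in arbitrary units from 0, in the control and the crushed eye of each pair. Lines join the eyes of a pair. In all 4 panels the values go down in pair 1 and go up most in pair 3, where the control eye is the lowest of the 6. Among the crushed eyes, that of pair 3 is the highest for Hk2 and both marker sums but the lowest for Slc16a1.

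The next steps convert fructose phosphates. Phosphofructokinase, which controls the pace of glycolysis, has a liver, a muscle and a platelet type subunit, encoded by Pfkl, Pfkm and Pfkp. Pfkp was at 5465, 5328 and 4943 in control eyes and at 5461, 4546 and 4535 in crushed eyes, with a difference of -0.12 (95% interval -0.47 to 0.23, and -0.06 without pair 2). Its other 2 tested probe sets, both dimmer, had 0.24 and -0.65, so that the probe sets of this gene did not share a direction. Pfkl had a difference of 0.09 and Pfkm of -0.04, the latter with -0.52 in pair 3 where the control eye stood at 1357 and the crushed eye at 949. Pfkfb2 and Pfkfb3 make fructose 2,6-bisphosphate, the activator of phosphofructokinase. Pfkfb2 was at 1350, 1090 and 1084 in control eyes and 1329, 1166 and 1470 in crushed eyes (difference 0.17, 95% interval -0.23 to 0.57), again highest in pair 3, without which it was 0.04. Pfkfb3, the form that HIF1 and stress kinases are known to induce, was at 448 ± 60.1 in control eyes and 449 ± 68.4 after crush (SD, n = 3 each).

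The enzymes that follow, from aldolase to pyruvate kinase, included the member with the narrowest range as well as some wider than the members' median of 1.32 (highest over lowest array). Pgk1, which makes the first ATP of the pathway, was at 12674, 12886 and 11815 in control eyes and at 12789, 11708 and 12499 in crushed eyes, a difference of -0.01 (95% interval -0.37 to 0.34). Pgam1, phosphoglycerate mutase, stayed between 7159 and 7531 on all 6 arrays, where the highest was 1.05 times the lowest, the narrowest range of the 38 members. Eno2, the enolase of neurons, was at 6613 ± 610 in control eyes and 6494 ± 606 after crush (SD, n = 3 each). The aldolases Aldoa and Aldoc (the latter also a marker of astrocytes and Muller cells) had differences of -0.04 and -0.10. Tpi1, triose phosphate isomerase, had the lowest of the glycolytic group at -0.17 (95% interval -0.58 to 0.24, and -0.04 without pair 2), and its other 2 probe sets had -0.16 and -0.19. Its crushed eyes were at 10368, 7755 and 9523, so that the low value was that of crush eye 2. Pkm, pyruvate kinase, showed the same shape, with 6860, 7248 and 6690 in control eyes and 7510, 5500 and 6725 after crush. Genes of this pathway have processed pseudogenes, which the probe sets may also read.

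Gapdh, the oxidizing step between aldolase and Pgk1, was read from Affymetrix control probe sets. The one at the 3′ end was at 11358, 11382 and 10774 in control eyes and at 11475, 8682 and 10828 after crush. The one at the 5′ end was at 1916, 1723 and 2100 in control eyes and at 2453, 1879 and 1436 after crush. The 3′ probe set was lowest in crush eye 2 and the 5′ probe set in crush eye 3, and the groups overlapped in both. The probe set from the middle of the transcript was at 4313 ± 56.3 in control eyes and 3781 ± 686 after crush (SD, n = 3 each), and its groups overlapped as well.

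Lactate dehydrogenases interconvert pyruvate and lactate, Ldha with a bias toward lactate and Ldhb toward pyruvate. Ldha was at 10415, 10782 and 9293 in control eyes and at 10627, 9026 and 9270 after crush, a difference of -0.08 (95% interval -0.44 to 0.29). Ldhb was at 8820, 8916 and 8297 in control eyes and 8985, 7748 and 8388 after crush, a difference of -0.05. For both genes the low crushed eye was that of pair 2, and the other 2 pairs differed by 0.03 or less in size. The 3 further probe sets of Ldhb, all bright, had -0.20, -0.21 and -0.39, with the crushed eye of pair 2 lowest on each.

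Glucose enters through facilitative transporters, Slc2a1 (GLUT1) in endothelium, glia and photoreceptors and Slc2a3 (GLUT3) in neurons. Slc2a1 was at 7208 ± 771 in control eyes and 7248 ± 1004 after crush (SD, n = 3 each), a difference of 0.00. Slc2a3 was at 7977 ± 289 and 7583 ± 876 (SD, n = 3 each), a difference of -0.08. Lactate and pyruvate cross membranes through Slc16a1 (MCT1), Slc16a3 (MCT4) and Slc16a7 (MCT2). Slc16a1 was at 1500, 1160 and 548 in control eyes and at 1198, 1168 and 1152 after crush. The crushed eyes lay close together and inside the range of the controls, of which eye 3 was low, and the differences were -0.32, 0.01 and 1.07 in pairs 1 to 3. Its mean difference of 0.25 (adjusted p = 0.809 from limma) had the other sign without pair 3, at -0.16. Control eye 3, where Slc16a1 and Hk2 were lowest, was also the array with the lowest sums of rod and cone markers. The rest of the order differed, since crush eye 3 was the highest crushed eye for both marker sums and the lowest crushed eye for Slc16a1. The part of photoreceptor RNA in the values of Slc16a1 was not tested.

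Slc16a7, the high affinity transporter of neurons, was dim, at 69.7 ± 16.4 in control eyes and 61.0 ± 17.6 after crush (SD, n = 3 each). Slc16a3, the exporter of highly glycolytic cells, was dimmer still and stood outside the test, at 31.7, 39.1 and 44.5 in control eyes and at 23.2, 24.5 and 20.0 after crush. All its crushed eyes were below all its controls, which no tested member showed. At such intensities the signal cannot be told apart from background with these files. With no filter on intensity it passed an unadjusted p under 0.05 from limma, as 1 of 2 members that did so.

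Pyruvate dehydrogenase is a complex of the decarboxylase subunits Pdha1 and Pdhb and the acetyltransferase Dlat, and the kinases Pdk1 to Pdk4 switch it off. All 7 of these genes had a difference below 0, with a median of -0.10, but the direction rested on pair 2. In pair 1, 6 of 7 were higher in the crushed eye (median 0.14), in pair 2, 6 of 7 were lower (median -0.31), and in pair 3, 6 of 7 were lower with a median of -0.04. Without pair 2 the median was 0.05. Over all tested genes the medians were 0.01, -0.10 and 0.04 in the same pairs. The 17 tested RGC markers had medians of 0.22, -0.24 and -0.10, with all 17 higher in the crushed eye of pair 1. Amacrine cell markers had -0.06, -0.36 and 0.03. The part of RGC RNA in the values of this group was not tested.

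Dlat was at 2731, 3309 and 2661 in control eyes and at 3012, 2061 and 2643 after crush, a difference of -0.18 (95% interval -0.70 to 0.34). Without pair 2 its difference was 0.066. Pdha1 had -0.10 and Pdhb -0.14, with intervals of -0.54 to 0.34 and -0.50 to 0.23, and Pdhb had -0.05 without pair 2. Pdk3 had the lowest difference of the members at -0.44 (95% interval -1.32 to 0.44, adjusted p = 0.729 from limma). It was at 518, 509 and 428 in control eyes and at 589, 183 and 417 after crush, and the value of 183 in crush eye 2 made the difference, which was 0.074 without pair 2. Pdk1, a HIF1 target that diverts pyruvate from mitochondria, was at 3207 ± 129 in control eyes and 3130 ± 217 after crush (SD, n = 3 each), and Pdk2 had a difference of -0.04. Pdk4, the kinase known for its induction by fasting and glucocorticoids, was at 99, 134 and 113 in control eyes and at 113, 176 and 61 after crush, with the lowest and the highest value both in crushed eyes.

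TCA cycle enzymes had 2 of 11 differences above 0 and 9 below, with a median of -0.10 and all 11 smaller than 0.2 in size. Of all tested genes 54.3% were below 0 and 64.9% were smaller than 0.2 in size. Among genes with a mean of at least 3000 these shares were 67.6% and 89.7%, with a median difference of -0.04. The medians were 0.02, -0.17 and -0.06 in pairs 1 to 3, and without pair 2 the median was -0.01. Cs, citrate synthase, opens the cycle and was at 6744 ± 363 in control eyes and 6593 ± 376 after crush (SD, n = 3 each). The NAD dependent isocitrate dehydrogenase has subunits encoded by Idh3a, Idh3b and Idh3g, with differences of -0.16, -0.03 and -0.13, and Idh3a had -0.07 without pair 2. Idh3b stayed between 6702 and 7158 on all arrays. Idh2, the NADP dependent form that supplies reducing power in mitochondria, was at 1624, 1331 and 1813 in control eyes and at 1403, 1219 and 1661 after crush. Its differences were similar in pairs 1 to 3 (-0.21, -0.13 and -0.13), while the control eyes differed among themselves by more than that. Its mean difference of -0.15 had an adjusted p of 0.747 from limma (95% interval -0.49 to 0.18). The unadjusted p was 0.297 with limma, 0.0434 from limma with a floor of 64 in place of 16, and 0.0373 by the methods' t-test, and another, dim probe set of Idh2 had 0.02.

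In the later part of the cycle, Ogdh (the oxoglutarate dehydrogenase subunit) was at 533 ± 20.1 in control eyes and 539 ± 75.4 after crush (SD, n = 3 each). Suclg1 and Sucla2, which form succinyl-CoA ligase, each had a difference of -0.10, with -0.37 and -0.34 in pair 2. Fh1, fumarase, had a difference below 0 in each of the pairs, at -0.01, -0.21 and -0.11. The malate dehydrogenases, Mdh1 in the cytosol and Mdh2 in mitochondria, shuttle reducing equivalents between the compartments. Mdh1 was at 12035 ± 238 in control eyes and 12509 ± 727 after crush and Mdh2 at 9672 ± 260 and 9457 ± 763 (SD, n = 3 each). Besides Idh2 and Fh1, only Pfkp and Idh3g were lower in all 3 pairs, which makes 4 of 38, where 15.0% of all tested genes were so. None was higher in all 3 pairs, against 15.2% of all tested genes. Among genes with a mean of at least 3000, 334 of 2213 were lower and 175 were higher in all 3 pairs.

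**Figure D3:**
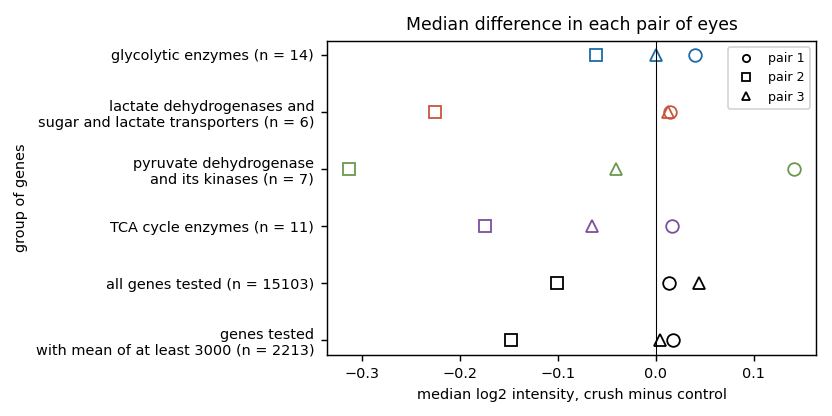
Median log2 intensity of the crushed minus the control eye in each pair, with the number of genes in parentheses. Rows are the 4 roles, all tested genes, and tested genes with a mean intensity of at least 3000. Every group has its lowest median in pair 2, down to -0.31 for pyruvate dehydrogenase and its kinases, and medians of 0.14 or less in pair 1.

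Members with several probe sets showed how far the low values of crush eye 2 depended on the probe set. Of the 38 members 25 had further tested probe sets, 44 in all. Of these 0 were called with limma, and 24 were lowest on the array of crush eye 2. Idh3a was the widest case. Its brightest probe set was at 3683, 4104 and 3623 in control eyes and at 3725, 3259 and 3263 after crush. Its next probe set was at 2207, 2230 and 2464 in control eyes and at 2301, 440 and 2297 after crush, a difference of -2.34 in pair 2 against 0.06 and -0.10 in the others. The 2 remaining probe sets had -0.25 and -0.83 in that pair. In 10 of the 25 members the brightest probe set had the highest difference of its gene in pair 2, and in 8 the lowest. Mdh2 is of the first kind, with -0.22 in pair 2 on the brightest probe set and -0.65 on the other, and so is Pdk1, with -0.17 on the brightest and -0.93 on the lowest. Dlat is of the second kind, with -0.68 on the brightest against -0.15 and -0.29, as is Aldoc, with -0.37 on the brightest and 0.70 on a dim one. Of the 25 members, 11 had another probe set with a difference of the opposite sign.

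**Figure D4:**
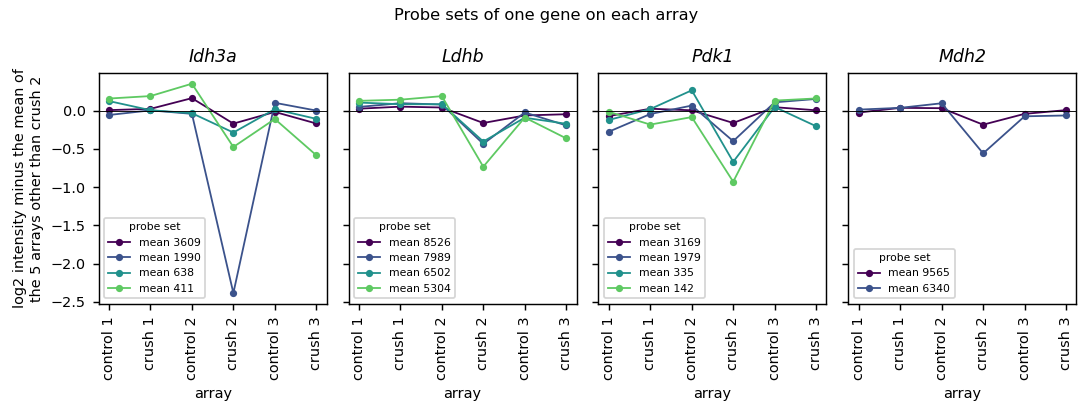
Log2 intensity of each tested probe set of Idh3a, Ldhb, Pdk1 and Mdh2 on the 6 arrays, relative to its mean over the 5 arrays other than crush 2. The 4 genes were chosen, after their values were seen, for low values on that array, 3 of them (not Idh3a) among the 10 whose brightest probe set had the highest difference in pair 2, and the legend gives mean intensities. All fall below 0 on the array of crush eye 2, the brightest of each gene by least, and a probe set of Idh3a lies farthest down there.

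Other genes of central carbon metabolism, listed beside the members by role, gave a single call, where 2.76% of all tested genes were called higher and 2.27% lower. Of 26 further genes of glycolysis, gluconeogenesis and sugar uptake 0 were called in either direction, and their median difference was -0.04. Of 23 further genes of pyruvate and TCA cycle metabolism 0 were higher and 1 was lower, with a median of -0.06. Of 15 genes of the pentose phosphate pathway and of glycogen 0 were called (median -0.03), and of 18 genes of the HIF pathway and the hypoxia response 0 were called (median -0.09). Hif1a was between 8281 and 9296 on all arrays. Vegfa, the angiogenic factor that hypoxia induces, was at 2204, 2588 and 2440 in control eyes and at 2229, 2439 and 3845 after crush, high in crush eye 3. Its difference of 0.20 was the highest of the 18 genes, of which 7 were above 0 and 11 below. Egln1 (-0.22) and Ankrd37 (-0.33) were not called, but their crushed eyes all lay below their control eyes. Of all tested genes 5.32% showed this, and 0 of the 18 showed the reverse.

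The gene called was Pdhx, which encodes the protein that binds the E3 subunit within the pyruvate dehydrogenase complex. It was at 562, 493 and 469 in control eyes and at 425, 172 and 312 after crush, so that every crushed eye lay below every control eye. Of all tested genes 5.32% showed this, as did 2 of the 23 genes of its list, itself included. The difference of Pdhx was -0.84 (standard error 0.25, adjusted p = 0.642 from limma), with -0.40, -1.52 and -0.59 in pairs 1 to 3. Without pair 2 it was -0.50, also with an unadjusted p under 0.05 from limma. By the methods' t-test the unadjusted p was 0.0726, and a single call in these lists is no more than the share over all tested genes. Dld, the E3 subunit itself, had a difference of -0.30, with -1.23 in pair 2 and values of 0.12 and 0.20 in pairs 1 and 3.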

How the data were processed

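Arrays of 6 eyes, 3 control and 3 crushed, were analysed from a table of the whole series. The deposited values are linear signal intensity per probe set of Affymetrix mouse 430 2.0 arrays, for which the authors used dChip with its model of perfect match and mismatch probes and normalized on an invariant set. Of 45101 probe sets 64 are controls and were not tested. The platform annotation gave 34958 probe sets 1 symbol and 932 more than 1, while 9211 were not listed. With a floor of 16 and on the log2 scale, 33169 probe sets whose mean reached 40 were fitted by limma 3.58.1 (lmFit, eBayes) in R 4.3.3. Benjamini-Hochberg adjustment covered all of them, and shares of all tested genes are over the brightest probe set of 15103 genes.

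Eye number was a block, since the methods use a paired test on contralateral eyes, and deviations from the group means correlated at 0.154, 0.125 and 0.297 within the same numbers and at up to 0.131 (control 2 with crush 1) across them. The labels do not say which animal an eye came from. With the block, p values rest on the spread of the differences within these pairs of eyes, which limma shares over all probe sets. The members and lists were chosen by pathway with earlier results of these data known. Every measured member is named, and the 12 with the smallest p, with each further pathway gene called, were compared across settings of the block, floor, filter, scaling, probe sets, prior, test and pairs. The methods' t-test was run without their cutoffs on fold and intensity. The fit was tested on simulated data. For arrays, their number limits the precision.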

Additional observations from a re-analysis of the deposited data

How the results depend on the processing

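Between 0 and 2 members passed an unadjusted p under 0.05 in any setting. The count was 0 with limma as described, and also without the replicate block (0 of 38), with a floor of 1, with a mean of at least 100, after quantile normalization, with arrays scaled to the same median, with the mean of a gene's probe sets and with a trend and robust prior. With a floor of 64 it was 1, lower (Idh2), by the methods' paired t-test 1, lower (Idh2), and with no intensity filter 2, both lower (Idh2 and Slc16a3). Leaving out a pair gave 0 to 1 members, 0 to 1 of them higher (Hk2 without pair 1) and 0 lower. Over all fitted probe sets, 2546 of 33169 passed with limma as described and 2620 of 33169 with a floor of 64. The numbers were 1671 of 33169 by the methods' t-test, 3505 of 45037 with no intensity filter and 2696 of 33169 without pair 1. These count probe sets, where the members are counted as genes. Group medians moved by less than the spread between pairs in the settings that kept all pairs, and leaving out a pair the median over all members ranged from -0.11 to 0.02, that of glycolytic enzymes from -0.05 to 0.02, that of lactate dehydrogenases and transporters from -0.11 to 0.02, that of pyruvate dehydrogenase and its kinases from -0.25 to 0.05 and that of TCA cycle enzymes from -0.13 to -0.01. Signs turned for Dlat (0.066) and Pdk3 (0.074) without pair 2 and for Slc16a1 (-0.16) without pair 3, where leaving out each pair in turn gave -0.35 to 0.066 for Dlat, -0.76 to 0.074 for Pdk3 and -0.16 to 0.54 for Slc16a1. Pdhx, called as described, had an unadjusted p of 0.0645 with a floor of 64, 0.0833 with no intensity filter and 0.0726 by the methods' t-test, at log2 differences of -0.84, -0.84 and -0.75. The causes were not tested. Of 168 comparisons of 13 genes with their value as described, 158 kept their direction and their side of the threshold. Slc16a7 was not tested with a mean of at least 100, which left 37 members.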
